A study of Homo sapiens with 24 samples.

Results

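Interferon-stimulated genes are the genes that cells switch on when an interferon binds its receptor, and they were followed here in U251 cells, an established human glioblastoma line, treated with G-1, an agonist of the G protein-coupled estrogen receptor (GPER). The 41 genes examined were 39 interferon-stimulated genes and 2 genes of antigen presentation, TAP1 and B2M. They were found on the microarrays through the RefSeq transcript printed for each probe. Of the 41 genes, 39 had at least 1 probe (50 probes in all), out of 24847 genes with a symbol and a probe. IFI27 and B2M had no matched probe, so antigen presentation was represented among them by TAP1 alone. A probe was tested when all 4 arrays of some group showed it well above background, which kept 34 of the 41 genes. IRF7, RSAD2, HERC6, CMPK2 and XAF1 had a probe but did not pass, and 30 of the 34 tested genes were well above background on all 24 arrays.

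The cells received vehicle (DMSO at 0.1% in the labels), G-1 at its IC50 dose or G-1 at 1 µM, each for 24 h or 72 h, and no group received an interferon. Each of the 6 groups held 4 arrays, which the study describes as independent experiments. The level of a gene is given as the log2 intensity of its brightest tested probe minus the 75th percentile of its array, so that 0 is the intensity that 75% of the probes of an array lay under. The arrays lay on 3 slides of 8. All 8 arrays of G-1 1 µM were on the third slide, in a second scanning session with a median local background of 48 to 58 against 44 to 48 and 38% to 40.7% of spots well above background against 41.1% to 44.5%. At a given duration, treatment with G-1 1 µM and scanning session cannot be told apart, whereas the change from 24 h to 72 h within G-1 1 µM lay within 1 slide. A microarray of RNA from whole cultures also cannot tell fewer expressing cells from less RNA per cell.

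Type I interferons act through the receptor subunits IFNAR1 and IFNAR2 and the kinases JAK1 and TYK2, which activate STAT2. STAT2 and IRF9 are subunits of the factor ISGF3, which binds the interferon-stimulated response element, with a core of GAAA, any 2 bases and GAAA, in the promoters of its targets. Interferon gamma acts through the gamma-activated site TTCNNNGAA and through factors such as IRF1. The targets include antiviral effectors, sensors of foreign RNA, proteins that damp the response and the machinery that loads peptides on MHC class I molecules. Many of these genes are also transcribed at a basal level in tumour cells without added interferon.

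The promoters show what most of these genes have in common. RefSeq promoters (GRCh38.p14, from 250 bases before to 50 bases after each gene start) were found for 32 of the 41 genes. The core of the response element, searched on both strands, was found for 23 of the 32 (71.9%), against 4.38% of all 27305 genes with a promoter. TTCNNNGAA, also searched on both strands, was found for 9 of the 32 (28.1%), against 9.38% of all genes. In some promoters, such as that of BST2, matches of the 2 motifs share part of their letters. The windows below were chosen to show a gene of each kind described later. The first 3 rose at G-1 1 µM 72 h, the next 5 fell, and the last 3 did not pass the test. Capitals mark the motif, which reads TTTC, any 2 bases and TTTC where the core lies on the other strand.
IFI44L, chr1:78620363-78620396, + strand: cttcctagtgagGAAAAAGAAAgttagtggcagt
OAS3, chr12:112938319-112938352, + strand: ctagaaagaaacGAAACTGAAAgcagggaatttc
IRF1, chr5:132490877-132490909, - strand: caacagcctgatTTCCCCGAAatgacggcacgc
IFITM1, chr11:313988-314021, + strand: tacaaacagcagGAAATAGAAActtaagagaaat
IFITM3, chr11:320891-320924, - strand: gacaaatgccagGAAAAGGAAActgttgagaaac
BST2, chr19:17405733-17405772, - strand: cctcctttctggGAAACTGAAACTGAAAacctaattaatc
PARP9, chr3:122564320-122564353, - strand: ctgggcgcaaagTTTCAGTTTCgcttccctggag
ISG20, chr15:88638935-88638968, + strand: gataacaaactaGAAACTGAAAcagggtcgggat
ISG15, chr1:1013372-1013411, + strand: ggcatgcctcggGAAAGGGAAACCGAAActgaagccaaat
IFIT1, chr10:89392495-89392528, + strand: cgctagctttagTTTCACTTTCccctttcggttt
TAP1, chr6:32853811-32853850, - strand: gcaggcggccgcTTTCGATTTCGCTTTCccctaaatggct
IRF1 is shown with the gamma-activated site and had no match to the response element core in its promoter. Matches to this core were found for genes of every outcome. They were present in 3 of 4 promoters of genes that rose at G-1 1 µM 72 h, in 8 of 11 of those that fell and in 9 of 11 of those that did not pass the test.

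At G-1 1 µM 72 h the interferon-stimulated genes split. STAT2, the IFITM genes, IFIT2, GBP2 and PARP9 fell to between 35.6% and 50.9% of DMSO, IFI44L and IRF1 rose 2.35-fold and 1.83-fold, and ISG15, MX1 and TAP1 did not pass the test. Of the 34 tested genes, 15 were lower and 5 higher than in DMSO at an adjusted p under 0.05. Among all 14238 tested genes, 31.0% were lower and 35.2% higher by the same rule. The groups did not overlap for 11 genes that were lower and 3 that were higher, against 27.5% and 31.2% of all genes. With a change above 2-fold as well, 6 were lower and 1 higher, against 7.42% and 4.93% of all genes. The median log2 fold change was -0.32 for the 34 genes and 0.03 for all genes. Leaving out 1 of the 8 arrays at a time kept 15 of the 20 calls in every case, and IFITM1, BST2, IFI35, IFIT5 and OAS3 each lost theirs at least once.

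**Figure D1:**
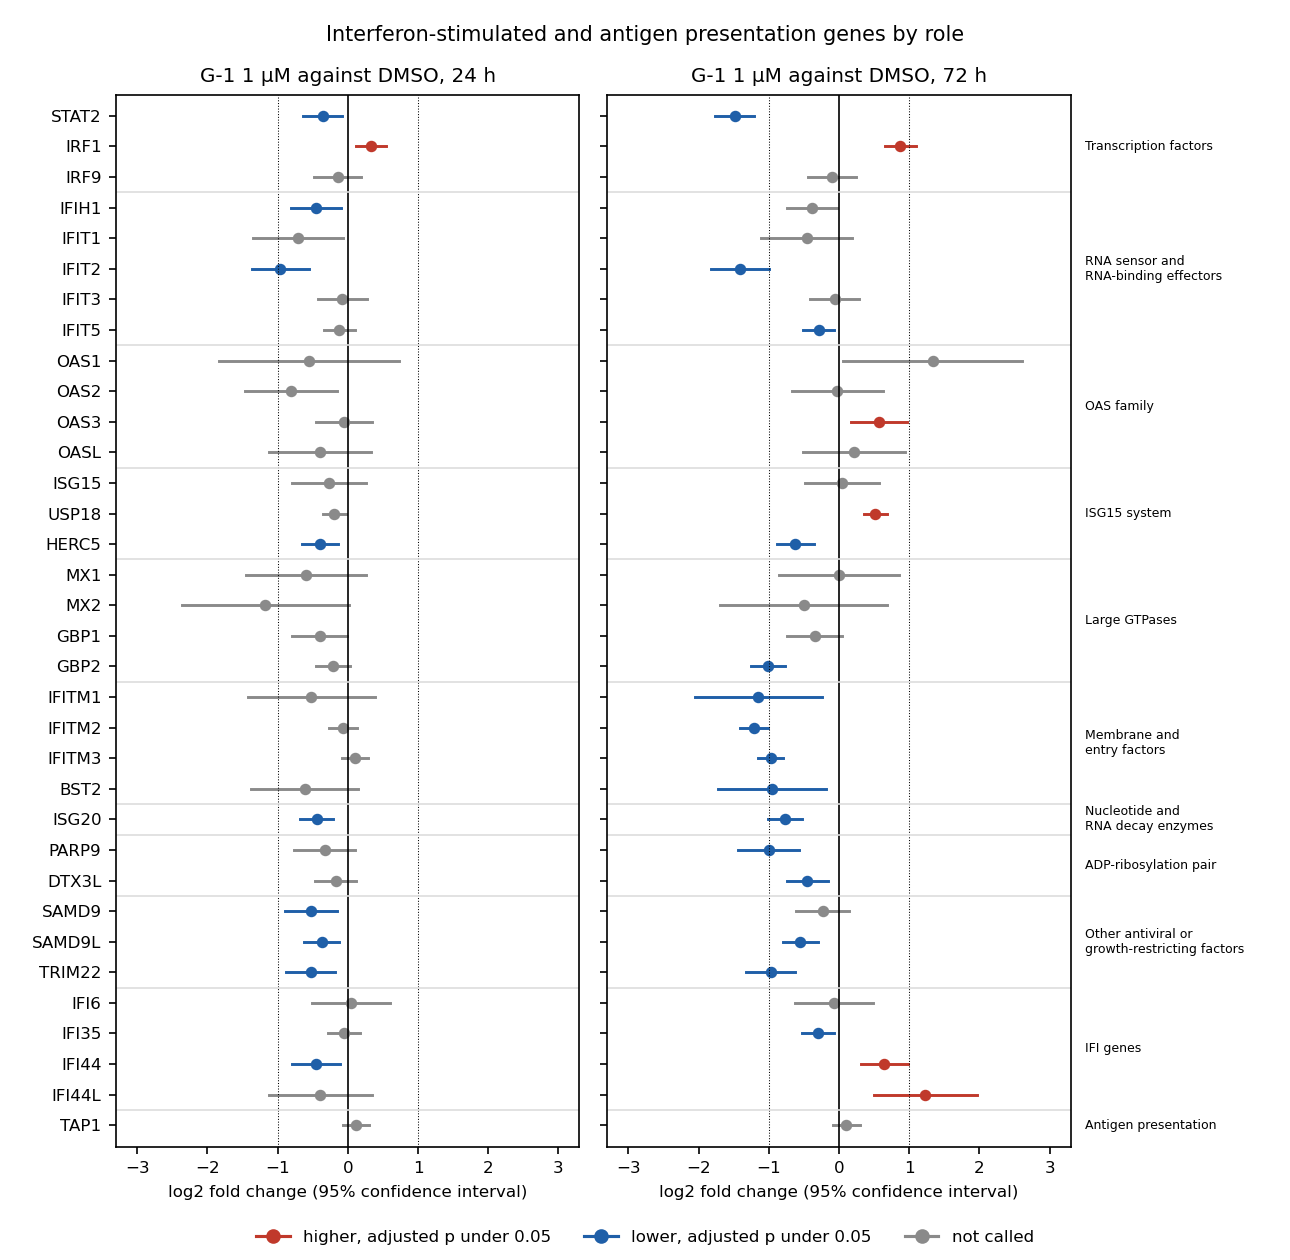
Log2 fold change of each of the 34 tested genes at G-1 1 µM against DMSO, at 24 h and at 72 h, ordered by role, with 95% confidence intervals from the limma fit over 24 arrays (4 per group). Red points were higher and blue points lower at an adjusted p under 0.05, grey points did not pass, and dotted lines mark a 2-fold change. At 72 h, 15 genes were lower and 5 higher, among them all 4 membrane and entry factors on the lower side.

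STAT2, the subunit of ISGF3 that activates transcription, had the largest fall (probe A_33_P3213064). In DMSO 72 h its level was 6.52, 6.58, 6.48 and 6.86 on the 4 arrays, in G-1 IC50 72 h it was 6.36, 6.58, 6.56 and 6.70, and in G-1 1 µM 72 h it was 5.16, 4.88, 5.02 and 5.42. All 4 arrays of G-1 1 µM 72 h lay below every other array of the series, and STAT2 fell by 1.49 in log2 (standard error, SE, of 0.13 and adjusted p = 6.81e-09), to 35.6% of the DMSO level. At 24 h the levels were 6.72, 6.36, 6.84 and 6.74 in DMSO, 6.34, 6.59, 6.78 and 6.81 in G-1 IC50 and 6.13, 6.20, 6.40 and 6.50 in G-1 1 µM. These groups overlapped, and the log2 fold change at G-1 1 µM was -0.36 (SE 0.13, adjusted p = 0.047). This 24 h call was lost without any one of 6 of the 8 arrays, with adjusted p up to 0.137.

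IRF9, the DNA-binding subunit of ISGF3, had a value of -0.10 at 72 h (log2 fold change, SE 0.16, adjusted p = 0.593). Without replicate 4 of G-1 1 µM 72 h it was called lower, at -0.31 (adjusted p = 0.0453). IRF1, which activates interferon-stimulated genes and genes of antigen presentation, rose. Its level was 0.15, 0.19, 0.00 and 0.21 in DMSO 72 h and 0.98, 1.35, 0.88 and 0.85 in G-1 1 µM 72 h. The groups did not overlap, and the log2 fold change was 0.88 (SE 0.10, adjusted p = 3.6e-07). In G-1 IC50 72 h, IRF1 lay between -0.02 and -0.01 on all 4 arrays. At 24 h it was 0.41, 0.39, 0.49 and 0.52 in DMSO and 0.91, 0.82, 0.91 and 0.48 in G-1 1 µM. Replicate 4 of G-1 1 µM lay among the DMSO arrays, and the log2 fold change was 0.33 (SE 0.10, adjusted p = 0.0228), a call lost without any one of 5 of the 8 arrays.

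The IFIT proteins bind viral RNA or translation factors and block translation, and 2 of their 4 genes fell at 72 h. IFIT2 had levels of 3.98, 4.08, 3.86 and 4.58 in DMSO 72 h, 3.35, 3.66, 3.55 and 3.95 in G-1 IC50 72 h and 2.94, 2.72, 2.43 and 2.77 in G-1 1 µM 72 h. At 24 h they were 4.08, 3.79, 4.62 and 4.47 in DMSO, 3.56, 3.75, 3.87 and 4.28 in G-1 IC50 and 3.03, 3.11, 3.41 and 3.58 in G-1 1 µM. At either duration the arrays of 1 µM lay below all those of DMSO. IFIT2 fell by 0.96 at 24 h (SE 0.20, adjusted p = 0.00131) and by 1.41 at 72 h in log2 (SE 0.20, adjusted p = 3.03e-06). Both calls were kept without any one array. A second, dimmer probe of IFIT2 was not above background on any array of G-1 1 µM 72 h, where it was at least 2.85-fold lower than in DMSO (adjusted p = 4.78e-07).

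IFIT1 and IFIT3 lie close to IFIT2 in the genome and gave other values. IFIT1 was at 4.51, 4.91, 4.32 and 5.76 in DMSO 72 h and at 4.61, 4.33, 3.69 and 5.03 in G-1 1 µM 72 h. These ranges overlapped (log2 fold change -0.46, SE 0.31, adjusted p = 0.2). At 24 h IFIT1 was at 5.53, 4.58, 5.70 and 5.10 in DMSO and at 4.22, 4.45, 4.78 and 4.61 in G-1 1 µM, with a log2 fold change of -0.71 (SE of 0.31 and adjusted p = 0.0897). It passed the test only without replicate 2 of DMSO 24 h (adjusted p = 0.0393). In G-1 IC50 it was at 4.31, 4.64, 4.65 and 5.45 at 24 h and at 4.35, 4.81, 4.78 and 4.49 at 72 h, within the range of DMSO at 72 h. IFIT3 had log2 fold changes of -0.08 at 24 h and -0.06 at 72 h, with a 95% interval of -0.42 to 0.29 at 72 h. IFIT5 was at 3.69, 3.83, 3.54 and 3.87 in DMSO 72 h, at 3.31, 3.72, 3.53 and 3.77 in G-1 IC50 72 h and at 3.51, 3.29, 3.39 and 3.59 in G-1 1 µM 72 h. Its ranges overlapped slightly, and its log2 fold change of -0.29 (SE 0.11, adjusted p = 0.0207) did not pass without replicate 2 or 4 of DMSO or replicate 2 of G-1 1 µM. At 24 h IFIT5 was at 3.76, 3.61, 3.69 and 3.82 in DMSO, at 3.52, 3.82, 3.62 and 3.94 in G-1 IC50 and at 3.54, 3.59, 3.56 and 3.70 in G-1 1 µM, with overlap. IFIH1, the sensor of long double-stranded RNA also called MDA5, fell by 0.45 on the log2 scale at 24 h (SE 0.17, adjusted p = 0.0498) and had a log2 fold change of -0.39 at 72 h (adjusted p = 0.0526). The 24 h call was lost without any one of 7 of the 8 arrays, and at 72 h IFIH1 passed without replicate 1 or 3 of DMSO or replicate 4 of G-1 1 µM (smallest adjusted p = 0.0142).

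All 4 membrane and entry factors fell at 72 h (median log2 fold change -1.06), where 31.0% of all genes were lower, and none of the 4 passed the test at 24 h, where 10.5% were. The calls of IFITM2 and IFITM3 were kept without any one array, and those of IFITM1 and BST2 were not. IFITM1, IFITM2 and IFITM3 sit in cell membranes and hinder the fusion of viruses. IFITM2 was at 6.01, 5.91, 5.98 and 5.97 in DMSO 72 h, at 6.10, 5.98, 6.08 and 5.99 in G-1 IC50 72 h and at 4.64, 4.72, 4.68 and 5.00 in G-1 1 µM 72 h. The DMSO and G-1 IC50 arrays lay within 0.2 of each other, and those of G-1 1 µM lay below every other array of the series. IFITM2 fell by 1.21 in log2 (SE 0.10, adjusted p = 1.37e-09). At 24 h, IFITM2 was at 5.44, 5.70, 5.67 and 5.99 in DMSO, at 5.63, 5.45, 5.65 and 5.72 in G-1 IC50 and at 5.54, 5.62, 5.60 and 5.77 in G-1 1 µM, which overlapped (log2 fold change -0.07, 95% interval -0.27 to 0.13).

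IFITM3 behaved alike, with 7.34, 7.24, 7.33 and 7.31 in DMSO 72 h and 6.22, 6.29, 6.21 and 6.60 in G-1 1 µM 72 h. The groups did not overlap, and the log2 fold change was -0.98 (SE 0.09, adjusted p = 9.25e-09). The IFITM genes are close paralogs, and whether their probes also bind the transcripts of the other members was not tested. IFITM1 varied far more between replicates. It was at 2.27, 2.32, 2.34 and 3.02 in DMSO 72 h, at 2.27, 3.45, 3.13 and 2.42 in G-1 IC50 72 h and at 1.17, 0.62, 0.66 and 2.90 in G-1 1 µM 72 h. Replicate 4 of G-1 1 µM lay among the DMSO arrays, and the other 3 lay below all of them. At 24 h IFITM1 was at 2.95, 1.35, 2.49 and 2.11 in DMSO, 1.49, 1.77, 1.46 and 2.76 in G-1 IC50 and 1.12, 1.74, 2.07 and 1.89 in G-1 1 µM. These groups overlapped, although replicate 1 of G-1 1 µM lay below all arrays of the other 2. At 72 h the log2 fold change of IFITM1 reached -1.15 (SE 0.43, adjusted p = 0.0257), and the adjusted p rose to as much as 0.091 and the call was lost without replicate 4 of DMSO or without replicate 1, 2 or 3 of G-1 1 µM.

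BST2, or tetherin, holds budding virus particles at the cell surface. It was at 0.15, -0.01, -0.08 and 0.43 in DMSO 72 h and at -0.89, -1.61, -1.39 and 0.55 in G-1 1 µM 72 h. The high array was again replicate 4 of G-1 1 µM, above all 4 DMSO arrays. BST2 fell by 0.95 in log2 (SE 0.37, adjusted p = 0.028). This call was lost without any one of 5 of the 8 arrays, with adjusted p up to 0.114, and the second probe of BST2 did not pass (log2 fold change -0.73, adjusted p = 0.1).

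Of the 4 large GTPases, GBP2 passed the test at 72 h. GBP2 coats vacuoles and bacteria inside cells. It was at 1.39, 1.48, 1.24 and 1.65 in DMSO 72 h, at 1.48, 1.32, 1.43 and 1.58 in G-1 IC50 72 h and at 0.50, 0.19, 0.42 and 0.61 in G-1 1 µM 72 h. Those of G-1 1 µM lay below all others of the series, and the log2 fold change was -1.01 (SE 0.11, adjusted p = 2.06e-07). At 24 h GBP2 was at 1.27, 1.50, 1.52 and 1.73 in DMSO, at 1.24, 1.41, 1.38 and 1.65 in G-1 IC50 and at 1.18, 1.21, 1.26 and 1.53 in G-1 1 µM, which overlapped (log2 fold change -0.21, adjusted p = 0.177). Its neighbour GBP1 had a log2 fold change of -0.35 at 72 h (SE 0.19, adjusted p = 0.114). It was called lower without replicate 3 of DMSO or replicate 1 or 4 of G-1 1 µM, with values of -0.48 to -0.16 over the 8 arrays left out in turn (smallest adjusted p = 0.0387). MX1, which traps viral nucleocapsids, had equal means in both groups at 72 h. Its log2 fold change was 0.00 with a 95% interval of -0.85 to 0.85, which leaves room for a change of close to 2-fold. For MX2 the value was -0.50 with an interval of -1.69 to 0.69.

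**Figure D2:**
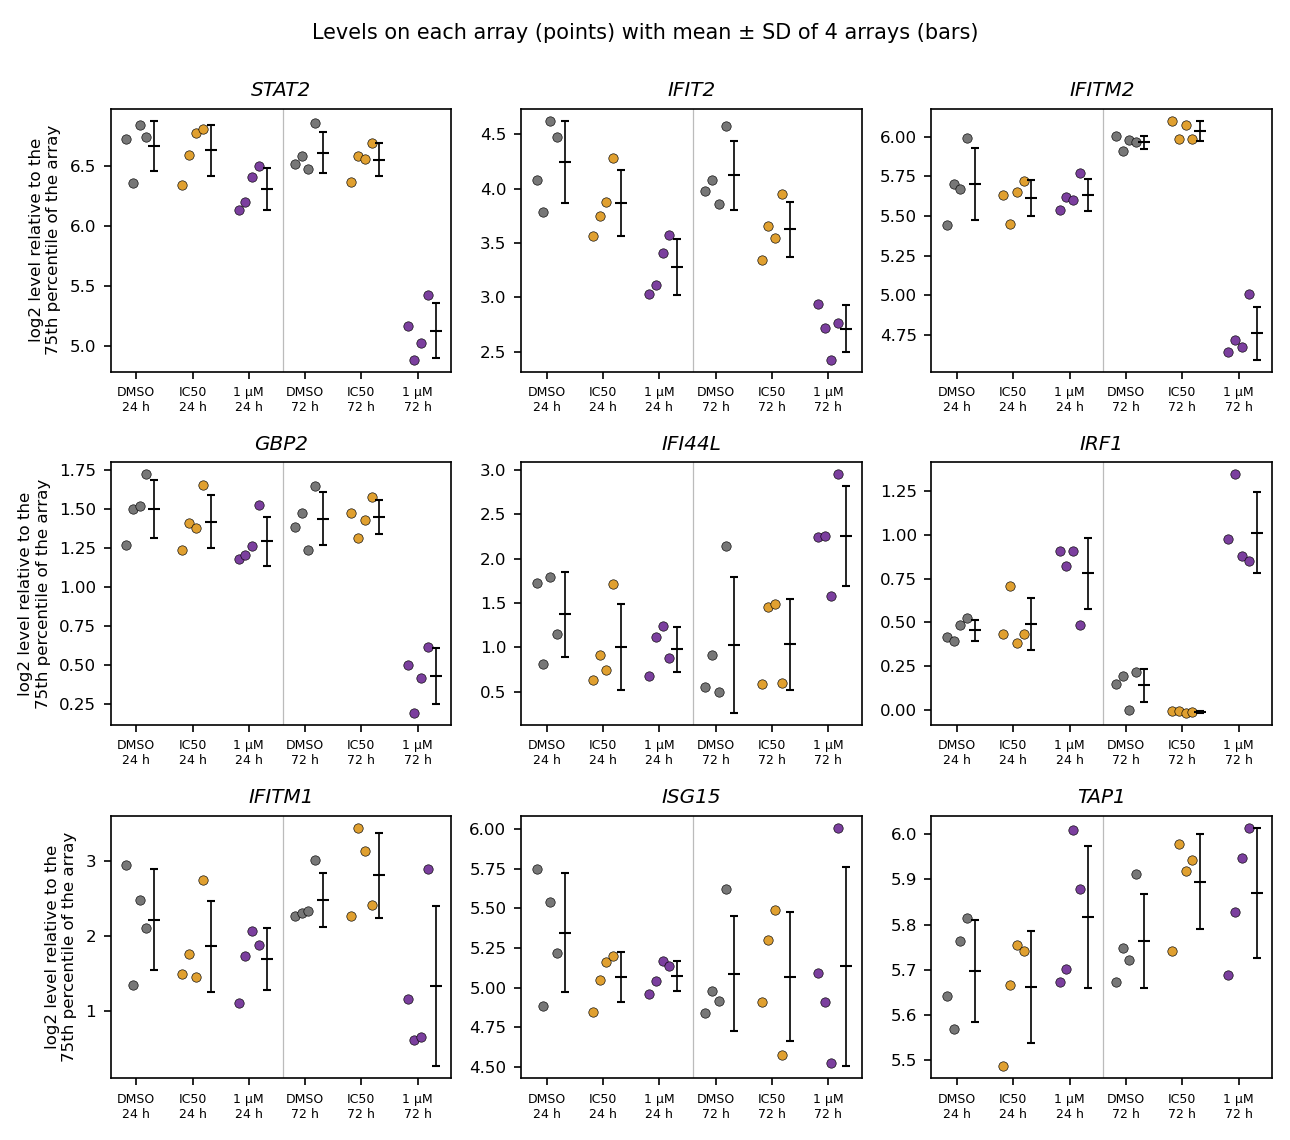
Level on each array (points) with the group mean ± SD (bars, n = 4) of 9 genes in the 6 groups, as log2 intensity relative to the 75th percentile of the array. In STAT2, IFIT2, IFITM2 and GBP2 the 4 arrays of G-1 1 µM 72 h lie below those of DMSO 72 h, in IRF1 they lie above, and in IFITM1 and ISG15 replicate 4 of G-1 1 µM 72 h is the highest of its group.

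PARP9 and DTX3L form a complex that ADP-ribosylates and ubiquitinates its targets, and the genes lie head to head. Both were lower at 72 h. PARP9 was at 3.30, 3.47, 3.25 and 3.78 in DMSO 72 h, at 3.14, 3.37, 3.38 and 3.63 in G-1 IC50 72 h and at 2.45, 2.07, 2.31 and 2.96 in G-1 1 µM 72 h. The groups of DMSO and G-1 1 µM did not overlap (log2 fold change -1.0, SE 0.21, adjusted p = 0.000269). At 24 h PARP9 was at 3.36, 3.45, 3.77 and 4.15 in DMSO, at 3.26, 3.20, 3.56 and 3.88 in G-1 IC50 and at 3.03, 3.14, 3.54 and 3.70 in G-1 1 µM, with overlap. The 2 probes of PARP9 differed in size, since the dimmer one had a log2 fold change of -0.30 at 72 h (adjusted p = 0.0177). DTX3L was at 1.78, 1.85, 1.69 and 1.72 in DMSO 72 h and at 1.04, 1.23, 1.38 and 1.60 in G-1 1 µM 72 h, a log2 fold change of -0.45 (SE of 0.14 and adjusted p = 0.00837) without overlap.

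The restriction factors TRIM22, SAMD9 and SAMD9L all fell at 24 h, and TRIM22 and SAMD9L also at 72 h. TRIM22 was at 0.36, 0.32, 0.31 and 0.29 in DMSO 24 h and at -0.25, -0.26, -0.17 and -0.15 in G-1 1 µM 24 h, without overlap (log2 fold change -0.53, SE 0.17, adjusted p = 0.0229). At 72 h it was at 0.33, 0.14, 0.18 and 0.18 in DMSO and at -0.60, -1.23, -1.14 and -0.09 in G-1 1 µM. The array closest to DMSO was replicate 4 of G-1 1 µM, and the log2 fold change was -0.97 (SE 0.17, adjusted p = 3.84e-05). SAMD9L had log2 fold changes of -0.37 at 24 h (adjusted p = 0.0241) and -0.55 at 72 h (adjusted p = 0.000472), and SAMD9 had -0.53 at 24 h (adjusted p = 0.0323) and -0.23 at 72 h (adjusted p = 0.265). A second, dimmer probe of SAMD9L had 72 h means of 1.56 in DMSO, 1.23 in G-1 IC50 and 1.23 in G-1 1 µM. For the brighter probe these means were 3.36, 3.20 and 2.81, so the 2 probes differed between the doses. ISG20, an exonuclease that degrades viral RNA, fell at both durations. It was at 4.98, 4.62, 4.94 and 4.94 in DMSO 24 h and at 4.43, 4.43, 4.38 and 4.47 in G-1 1 µM 24 h (log2 fold change -0.44, adjusted p = 0.00717). At 72 h it was at 4.75, 4.82, 4.40 and 4.91 against 4.13, 4.00, 3.73 and 3.94 (log2 fold change -0.77, adjusted p = 7.84e-06). Neither pair of groups overlapped, and both calls were kept without any one array.

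The ISG15 system gave 3 different outcomes. ISG15 is a ubiquitin-like protein that HERC5 joins to newly made proteins and that USP18 removes, and USP18 also damps signalling at the type I receptor. ISG15 was at 4.84, 4.98, 4.91 and 5.62 in DMSO 72 h, at 4.91, 5.30, 5.49 and 4.58 in G-1 IC50 72 h and at 5.09, 4.91, 4.52 and 6.01 in G-1 1 µM 72 h. The ranges overlapped fully, with a log2 fold change of 0.05 (95% interval -0.48 to 0.57) whose sign turned under quantile normalization and with the 50th percentile. At 24 h ISG15 was at 5.75, 4.88, 5.54 and 5.22 in DMSO, at 4.85, 5.05, 5.16 and 5.20 in G-1 IC50 and at 4.96, 5.04, 5.17 and 5.13 in G-1 1 µM, again with overlap. HERC5 fell, from 1.02, 1.06, 0.93 and 1.20 in DMSO 72 h to 0.64, 0.17, 0.35 and 0.55 in G-1 1 µM 72 h (log2 fold change -0.62, SE 0.13, adjusted p = 0.000217). It had fallen by 0.40 at 24 h as well (adjusted p = 0.0223). USP18 rose, from 1.53, 1.64, 1.54 and 1.92 in DMSO 72 h to 2.21, 2.11, 2.08 and 2.31 in G-1 1 µM 72 h (log2 fold change 0.52, SE 0.08, adjusted p = 1.23e-05). Neither HERC5 nor USP18 had overlapping groups at 72 h.

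IFI44 and IFI44L are neighbouring paralogs whose products have been tied to feedback on antiviral responses. Both were higher at 72 h. IFI44L was at 0.55, 0.92, 0.50 and 2.14 in DMSO 72 h, at 0.58, 1.45, 1.49 and 0.60 in G-1 IC50 72 h and at 2.25, 2.25, 1.57 and 2.95 in G-1 1 µM 72 h. Replicate 4 of DMSO reached into the range of G-1 1 µM, and the other 3 lay below it. IFI44L rose by 1.23 in log2 (SE 0.35, adjusted p = 0.00453), and the call was kept without any one array. At 24 h IFI44L was at 1.73, 0.81, 1.79 and 1.15 in DMSO, at 0.63, 0.92, 0.74 and 1.71 in G-1 IC50 and at 0.68, 1.11, 1.24 and 0.88 in G-1 1 µM, with overlap (log2 fold change -0.39, adjusted p = 0.42).

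IFI44 was the single gene among the 34 called in opposite directions. At 24 h it was at 3.45, 3.40, 3.55 and 3.41 in DMSO and at 2.87, 3.04, 3.04 and 3.05 in G-1 1 µM, without overlap (log2 fold change -0.45, SE 0.16, adjusted p = 0.0423). At 72 h it was at 2.84, 3.00, 2.91 and 3.50 in DMSO and at 3.91, 3.39, 3.34 and 4.18 in G-1 1 µM, with overlap through replicate 4 of DMSO (log2 fold change 0.65, SE 0.16, adjusted p = 0.00175). The 24 h call was lost without any one of the 8 arrays, with adjusted p of 0.0574 to 0.107, and the 72 h call was kept in each case. IFI35 had a log2 fold change of -0.30 at 72 h (adjusted p = 0.023, lost without any one of 3 arrays), and IFI6 had -0.07 (95% interval -0.63 to 0.48).

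The OAS enzymes make the 2'-5' oligoadenylates that activate RNase L. OAS3 rose at 72 h, from -0.54, -0.34, -0.43 and -0.29 in DMSO to -0.05, 0.00, -0.08 and 0.80 in G-1 1 µM (log2 fold change 0.57, SE 0.19, adjusted p = 0.0135). The groups did not overlap, but without replicate 4 of G-1 1 µM the adjusted p was 0.0763. OAS1 was well above background on 2 of 4 arrays of DMSO 72 h and on 4 of 4 of G-1 1 µM 72 h, with a log2 fold change of 1.33 (SE of 0.62 and adjusted p = 0.0635). Leaving out 1 array moved this value from 0.78 to 1.75, and it passed without replicate 4 of DMSO or replicate 3 of G-1 1 µM (smallest adjusted p = 0.0221). OAS2 and OASL had log2 fold changes of -0.02 and 0.21, neither of which passed. TAP1, a subunit of the transporter that brings peptides to MHC class I, was at 5.67, 5.75, 5.72 and 5.91 in DMSO 72 h, at 5.74, 5.98, 5.92 and 5.94 in G-1 IC50 72 h and at 5.69, 5.83, 5.95 and 6.01 in G-1 1 µM 72 h. The groups overlapped, and its log2 fold change of 0.11 had a 95% interval of -0.08 to 0.30. At 24 h TAP1 was at 5.64, 5.57, 5.76 and 5.82 in DMSO, at 5.49, 5.67, 5.76 and 5.74 in G-1 IC50 and at 5.67, 5.70, 6.01 and 5.88 in G-1 1 µM, which overlapped too.

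At G-1 1 µM 24 h fewer of the genes passed the test than at 72 h. Of the 34 genes, 9 were lower and 1 higher than in DMSO, against 10.5% lower and 20% higher among all tested genes. With arrays scaled to the 50th percentile, 5 were lower and none higher, since IRF1 did not pass. None of the 34 changed above 2-fold by the test, against 1.18% lower and 0.513% higher among all genes. MX2 had the lowest log2 fold change, at -1.18, and did not pass. The genes lower were IFIT2, ISG20, HERC5, TRIM22, SAMD9L, SAMD9, IFI44, STAT2 and IFIH1, and the gene higher was IRF1. The groups did not overlap for 8 genes, all lower, against 10.8% lower and 19.5% higher among all genes. The log2 fold change was negative for 30 of the 34 genes, with a median of -0.38 against 0.04 for all genes. The genes moved together on single arrays, as given below, so these signs are not independent of each other. Only IFIT2 and ISG20 kept their calls without any one array, and the count fell to 2 without replicate 1 of G-1 1 µM 24 h, to 4 without replicate 1 of DMSO 24 h, to 5 without replicate 3 of DMSO or replicate 2 of G-1 1 µM and to 6 without replicate 4 of DMSO.

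G-1 at its IC50 dose gave no call among the 34 genes at either duration. Among all genes, 0.218% were higher and 0.0281% lower at 24 h, and 0.428% and 0.478% at 72 h. At an unadjusted p under 0.05, GBP1 was lower at 24 h (log2 fold change -0.53, adjusted p = 0.744), against 4.64% of all genes in either direction. IFIT2 and IFIT3 were lower at 72 h (-0.50 and -0.42 on the log2 scale, with a smallest adjusted p of 0.418), against 9.62% of all genes. The methods' t-test called none either. At 24 h the log2 fold change was negative for 32 of the 34 genes, with a median of -0.15 against -0.01 for all genes, and at 72 h for 15, with a median of 0.01 against -0.02. These comparisons use the same DMSO arrays as those of 1 µM, and the signs of the genes are again not independent. The 95% confidence interval lay within a 2-fold change for 27 of the 34 genes at 24 h and for 31 at 72 h. For STAT2 at 72 h it was -0.33 to 0.22, and for IFITM2 it was -0.13 to 0.27.

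At 72 h the difference between the doses was tested directly. Between G-1 1 µM and G-1 IC50 at 72 h, 14 of the 34 genes were lower and 5 higher at 1 µM, against 29.3% and 35.9% of all genes. At 24 h, HERC5, IFIT2 and ISG20 were lower and IRF1 higher, against 8.32% and 18.2%. The 24 h count fell to 0 without replicate 1 of G-1 1 µM or replicate 4 of G-1 IC50, and to 1 without replicate 2 or 3 of G-1 1 µM or replicate 3 of G-1 IC50. Both comparisons set the third slide against the other 2.

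**Figure D3:**
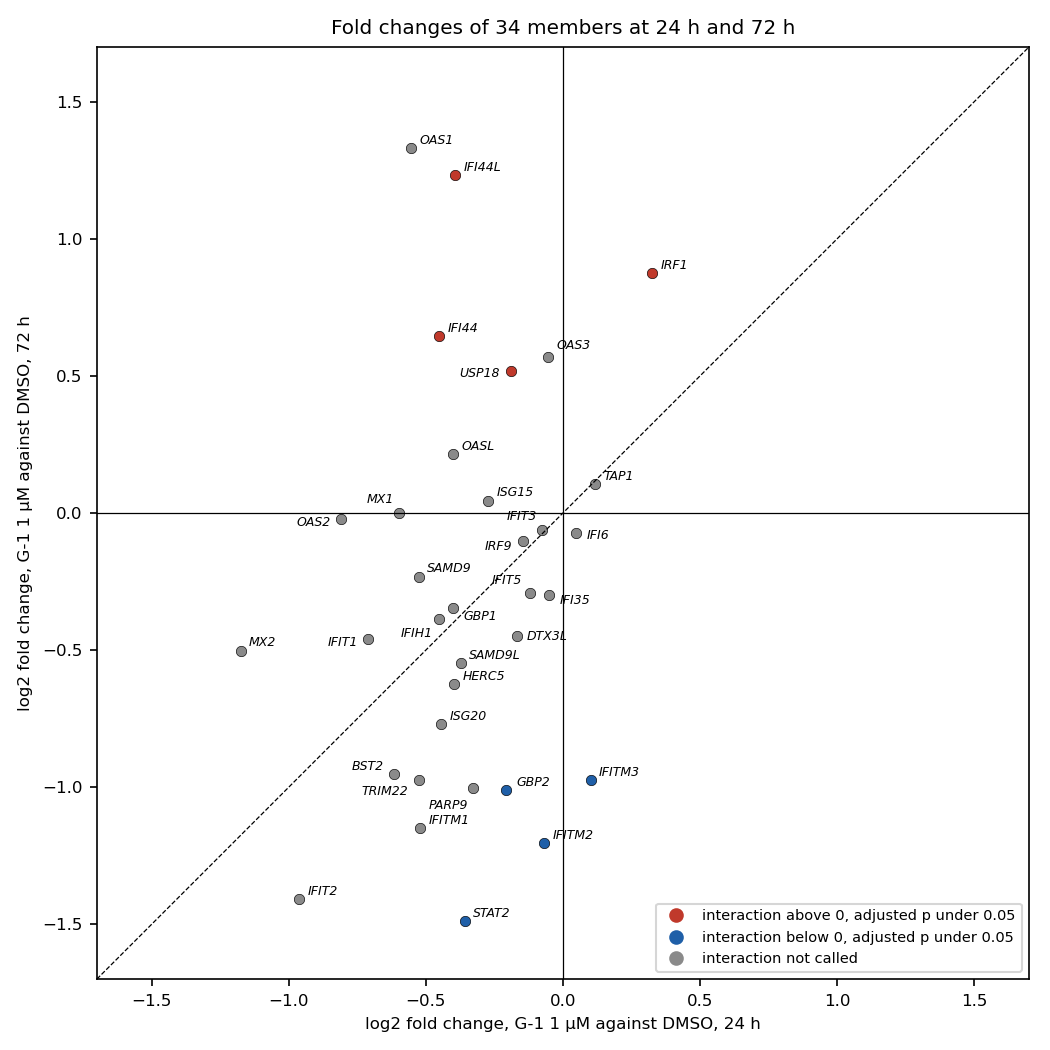
Log2 fold change at G-1 1 µM against DMSO at 24 h (horizontal axis) and at 72 h (vertical axis) for the 34 tested genes, coloured by the test of the difference between the durations. IFI44L, IFI44, USP18 and IRF1 lie above the diagonal and passed this test, and STAT2, IFITM2, IFITM3 and GBP2 lie below it and passed it.

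The effect of G-1 1 µM was tested for a difference between 72 h and 24 h, a contrast in which a constant offset between scanning sessions cancels. It passed for 8 of the 34 genes, 4 with a higher value at 72 h and 4 with a lower one, against 16.4% and 17.7% of all genes. The higher ones were IFI44L (1.62, SE 0.50, adjusted p = 0.017), IFI44 (1.1, adjusted p = 0.00119), USP18 (0.71, adjusted p = 9.39e-05) and IRF1 (0.55, adjusted p = 0.00729). The lower ones were IFITM2 (-1.14, adjusted p = 3.64e-06), STAT2 (-1.13, adjusted p = 0.000124), IFITM3 (-1.08, adjusted p = 2.91e-06) and GBP2 (-0.80, adjusted p = 0.000859), all as differences of log2 fold changes. All 8 were kept without any one of the 16 arrays. For IFIT2, ISG20, TRIM22, HERC5 and SAMD9L, lower at both durations, the difference between durations did not pass. It passed for TRIM22 without replicate 4 of G-1 1 µM 72 h (-0.67, adjusted p = 0.00687) and for ISG20 without replicate 3 of DMSO 72 h (adjusted p = 0.0366).

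Within the third slide, G-1 1 µM 72 h was also compared with G-1 1 µM 24 h. Here 10 of the 34 genes were lower and 3 higher at 72 h, against 24.3% and 18.9% of all genes. The largest falls were in STAT2 (-1.19), PARP9 (-0.91), IFITM2 (-0.87), GBP2 (-0.87) and IFITM3 (-0.77) on the log2 scale. DTX3L, IFI35, IFIT2, ISG20 and TRIM22 were lower too, and the rises were in IFI44L (1.28), IFI44 (0.71) and USP18 (0.58). Of these 13 calls, 10 were kept without any one of the 8 arrays. DTX3L, IFIT2 and TRIM22 each lost theirs at least once, with adjusted p up to 0.131, 0.0928 and 0.0525. Between the same durations in DMSO none of the 34 passed the test, against 1.29% of all genes higher and 2.05% lower. The log2 fold change in DMSO was negative for 25 of the 34, with a median of -0.12 against -0.03 for all genes, and here too the signs are not independent. At an unadjusted p under 0.05, 6 passed in DMSO (GBP1, IFI44, IFITM2, IFITM3, IRF1 and SAMD9), against 19.3% of all genes. Without replicate 4 of DMSO 24 h, IFITM2 and IFITM3 passed, both higher at 72 h.

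The lists of the 2 durations shared 6 genes that were lower (HERC5, IFIT2, ISG20, SAMD9L, STAT2 and TRIM22), which were 66.7% of the 9 at 24 h and 40% of the 15 at 72 h. The 2 lists come from different arrays of the same slides. The genes called in no comparison with DMSO were GBP1, IFI6, IFIT1, IFIT3, IRF9, ISG15, MX1, MX2, OAS1, OAS2, OASL and TAP1, which are 12 of the 34.

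The interferon-stimulated genes varied more between replicates than most genes. The median SD within groups was 0.251 log2 for the 34 genes and 0.146 for all tested genes, and 21 of the 34 lay above the 75th percentile of all genes and 9 above the 95th. The widest were OAS1 (0.930), MX2 (0.863), IFITM1 (0.656), MX1 (0.617), BST2 (0.553) and IFI44L (0.530). The narrowest were USP18 (0.109), IFITM3 (0.122), TAP1 (0.126) and IFITM2 (0.133). Of the 12 genes called in no comparison with DMSO, MX1, MX2, OAS1, OAS2, OASL and IFIT1 were among those above the 95th percentile.

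This spread was shared across genes on single arrays. Replicate 4 of DMSO 72 h lay above its group mean for 32 of the 34 genes (MX2 by 1.44, OAS1 by 1.25, IFI44L by 1.11, MX1 by 1.06), where 64.1% of all genes did. Replicate 4 of G-1 1 µM 72 h lay above for 31 (IFITM1 by 1.56, BST2 by 1.38, IFI6 by 1.09, MX1 by 1.08), where 48.5% of all genes did. Replicate 4 of G-1 IC50 24 h lay above for 33, with 52.7% of all genes. At the other end, replicate 2 of DMSO 24 h lay above its group mean for 3, replicate 1 of G-1 IC50 24 h for 2, and replicate 3 of DMSO 72 h and replicate 3 of G-1 1 µM 72 h for 3 and 2. Replicate 4 of G-1 1 µM 72 h also had the highest median background of the 24 arrays (58) and the lowest share of spots well above background (38%). Replicate 2 of DMSO 24 h was the one array of its group on the second slide. The part of background or slide in these shifts was not tested. Without replicate 4 of DMSO 72 h, 12 genes were lower and 6 higher at G-1 1 µM 72 h, and without replicate 4 of G-1 1 µM 72 h, 18 were lower and 4 higher.

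**Figure D4:**
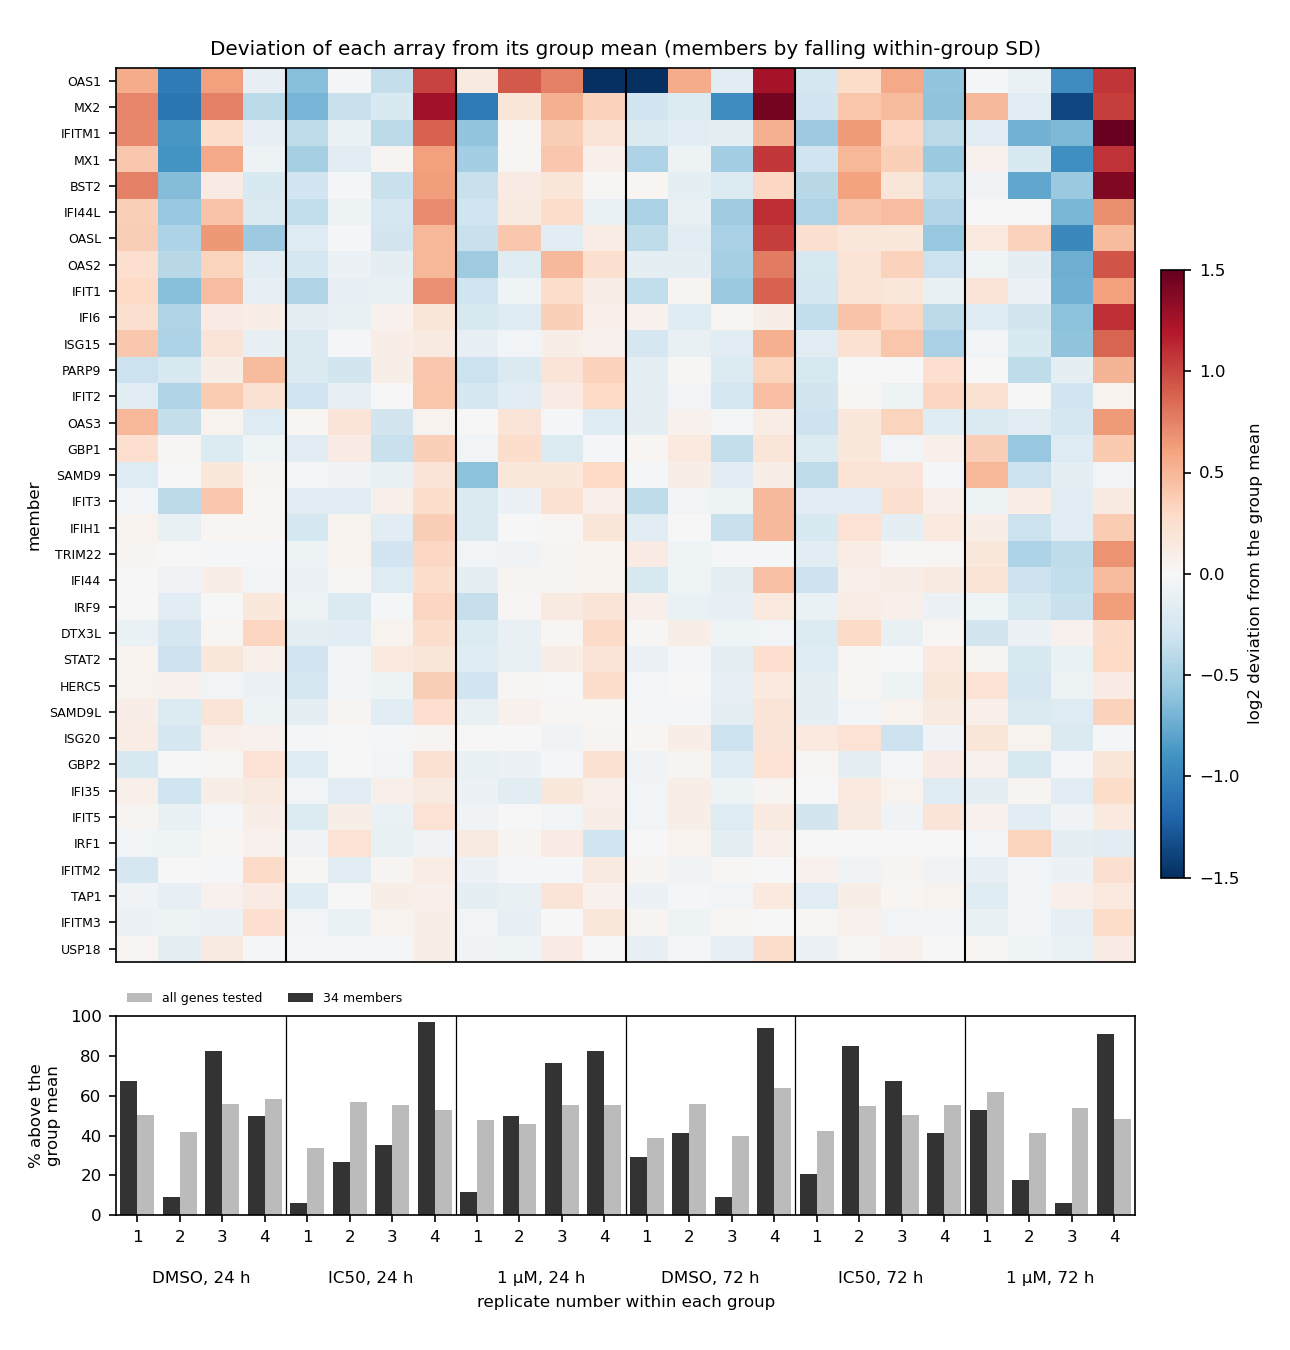
Deviation of each of the 34 genes (rows, by falling spread within groups) from its group mean on each of the 24 arrays (columns), in log2 with the colour limited to 1.5 either way. The bars give for each array the percentage of the 34 genes and of all tested genes above their group mean, and single arrays such as replicate 4 of DMSO 72 h stand high across most rows.

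Other genes of the interferon pathway were taken from lists written from general knowledge, 112 genes of which 87 were tested. At G-1 1 µM 72 h, 38 of the 87 were lower and 21 higher, against 31.0% and 35.2% of all genes, and at 24 h 18 and 11, against 10.5% and 20%, while at the IC50 dose none passed at either duration. None of the 8 interferon genes with a probe was tested, and IFNA2, IFNB1, IFNG, IFNK and IFNL1 were above background on no array. The same shares of all genes apply to the lists that follow. Of 9 receptor and kinase genes, 4 were lower and 3 higher at 72 h, with the largest changes in IFNAR1 (-0.55, adjusted p = 1.8e-05) and IFNGR2, a subunit of the interferon gamma receptor (0.61, adjusted p = 2.4e-05). Of 9 further transcription factors and restraints, 7 were higher and 1 lower at 72 h, led by IRF2 (1.06, adjusted p = 0.000264) and IRF5 (-0.33, adjusted p = 0.00376). IRF2 was well above background on 18 of the 24 arrays. Of 7 sensors and adaptors, 4 were lower and none higher at 72 h, with STING1, the adaptor of cytosolic DNA sensing, at -1.61 (adjusted p = 7.15e-10).

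Of 20 other genes of class I antigen presentation tested, 13 were lower and 1 higher at G-1 1 µM 72 h, against 31.0% and 35.2% of all genes. At 24 h 3 of the 20 were lower, against 10.5%. HLA-C had the largest fall (-1.59, SE 0.19, adjusted p = 4.31e-07), and TAP2, the other subunit of the peptide transporter, was the gene that rose (0.66, SE 0.13, adjusted p = 0.000177). The HLA class I genes are near-identical and vary between cell lines, so the values of single HLA probes are uncertain. Of 3 class II genes tested, 2 were lower, with HLA-DRB1 at -1.24 (adjusted p = 8.77e-07). HLA-DRB1 was well above background on 20 of the 24 arrays. CIITA and CD74, which class II presentation needs, were above background on no array. Of 39 further interferon-stimulated genes, 14 were lower and 10 higher at 72 h, against the same 31.0% and 35.2%, from PARP10 (-1.40, adjusted p = 0.00572) to IDO1, an enzyme of tryptophan breakdown (1.35, adjusted p = 2.29e-07). PARP10 was well above background on 14 of the 24 arrays, so the size of its change is uncertain.

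Markers of the line were checked beside these results. Of 8 astroglial and glioblastoma markers, 7 were well above background on all 24 arrays, GFAP and VIM among them, and AQP4 was above on none. Their summed linear intensity relative to the 75th percentile was 978 to 1106 in G-1 1 µM 72 h and 1212 to 1636 in the other groups. Of the 7 immune cell markers with a probe, PTPRC, CD3E and ITGAM were above background on no array, while CD14 and CSF1R were on all 24. The summed level of the 7 was 1.91 to 2.39 in G-1 1 µM 72 h and 1.08 to 1.48 elsewhere. Of 3 endothelial markers, PECAM1 was above background on no array, CDH5 on 16 and VWF on 23, and their summed level was 0.309 to 0.498 in G-1 1 µM 72 h and 0.632 to 1.24 in the other groups. Of 3 fibroblast markers, DCN was above on no array, COL1A1 on 1 and PDGFRB on 22, with summed levels of 0.168 to 0.445 in G-1 1 µM 72 h and 0.288 to 0.449 elsewhere. The part of these markers in the results was not tested.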

How the data were processed

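RNA of U251 cells was hybridized to 24 one-colour Agilent arrays. The authors deposited the background-subtracted intensity of each spot, as Feature Extraction (12.1.1.1 in the file headers, 10.7.3.1 in the submitters' processing notes) wrote it, with flags, and a deposited log2 table, which matched the values used here (median difference 0.00189) once each probe was centred. Outlier spots were dropped, repeated spots averaged, and log2 intensities shifted by the array's 75th percentile. For the 24 h arrays of G-1 IC50 and the 72 h arrays of G-1 1 µM a label disagreed with the title on duration, and titles were used. DMSO concentrations in the labels and the methods differ. No probe was saturated. Of 58118 probes, 22973 were tested with limma 3.58.1 (R 4.3.3), with 6 group means and 18 residual degrees of freedom, two-sided, with Benjamini-Hochberg adjustment over all tested probes. The number of arrays limits the precision. In a test on simulated data with 4 against 4 arrays (G-1 1 µM 72 h, 22973 probes), 34 of 66 changes of 0.5 log2, 59 of 67 of 1 log2 and 66 of 67 of 2 log2 were recovered. The simulated noise was independent between probes, and the other 22773 probes were unchanged. The 34 genes varied more than most genes and moved together, so these rates do not give the precision for them. Each gene was represented by its brightest tested probe. Values of every array were given for genes called with a change above 2-fold and for the 4 least changed among the brightest genes. In the other lists the largest called rise and fall at G-1 1 µM 72 h were named, and genes outside this rule were shown after their values were seen. The genes and lists were chosen with earlier results of these data known. The main fit did not use the numbers as pairs, although same-numbered arrays deviated together somewhat more than others (median correlation 0.116 against -0.04). Counts with the replicate block are given below. Alternatives covered scaling, background, filters, tests, blocks and each array left out.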

Additional observations from a re-analysis of the deposited data

Results flagged for a closer look

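In DMSO 72 h, IFITM1 on replicate 4 (3.02) stood apart from the other 3 arrays, which lay between 2.27 and 2.34. It was 1 of 66 groups of 4 arrays examined over 11 genes, and chance gives about 1 in 20.

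The effect of G-1 1 µM differed between 72 h and 24 h for 8 genes by the interaction term of the limma fit, given as the difference of log2 fold changes. It was higher at 72 h for IFI44L (1.62), IFI44 (1.1), USP18 (0.71) and IRF1 (0.55), and lower for IFITM2 (-1.14), STAT2 (-1.13), IFITM3 (-1.08) and GBP2 (-0.80).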

How the results depend on the processing

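Of 1089 values of single genes under an alternative, 1065 stayed on the same side of the threshold, 17 no longer passed, 7 newly passed and none of those called changed sign. With the 50th percentile, 5 of the 34 genes passed at G-1 1 µM 24 h in place of 10. The rule that adds a 2-fold change left 0 at 24 h, 7 at 72 h, 5 for the difference between durations, 2 for G-1 1 µM 72 h against 24 h, and 7 at 72 h and 0 at 24 h against G-1 IC50. Against DMSO, the methods' t-test gave 0 at 24 h, and 6 unadjusted and 5 after Benjamini-Hochberg adjustment at 72 h. Against G-1 IC50, it gave 0 at 24 h, and 6 unadjusted and 5 after adjustment at 72 h. Fitted on its own arrays, the 24 h comparison of the doses gave 2 in place of 4. In DMSO, 72 h against 24 h, 1 gene passed with normexp, an intensity trend, the slide as a block or the replicate block. Leaving out 1 array at a time gave 2 to 9 genes at G-1 1 µM 24 h, 17 to 22 at 72 h, 8 to 10 for the difference between durations, 0 to 2 for DMSO, 11 to 16 for G-1 1 µM over time, and 18 to 21 at 72 h and 0 to 3 at 24 h between the doses. With the replicate block 13 genes passed at 24 h and 21 at 72 h, and 13 of 24 arrays correlated best with an array of their own number. The correlation of deviations from the group means had a median of 0.116 over 60 pairs of the same number (-0.32 to 0.53) and -0.04 over 180 pairs of other numbers (-0.50 to 0.43). STAT2 at 24 h and IFITM1 at 72 h also lost their calls on the arrays of the comparison alone (adjusted p = 0.0752 and 0.0601), IFIT5 at 72 h with normexp (0.0602), and IFI44L between durations without a filter (0.0527). The cause was not tested. The counts for G-1 IC50 were 0 under every alternative. With the 50th percentile the median of all genes for G-1 1 µM against G-1 IC50 moved from 0.05 to -0.11 at 72 h. OAS1 was well above background on 19 of 24 arrays and OAS2, MX2 and SAMD9 on 23, so their lowest values are less reliable. The same holds for PARP10, IRF2 and HLA-DRB1 in the other lists.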
